A study of Homo sapiens with 4 samples.

Results

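Tight junctions seal the space between neighbouring epithelial cells, and the genes described here encode 9 of their proteins: the claudins *CLDN1*, *CLDN3*, *CLDN4* and *CLDN7*, the membrane proteins *OCLN* (occludin) and *F11R* (JAM-A), the scaffolds *TJP1* and *TJP3*, which encode the zonula occludens (ZO) proteins ZO-1 and ZO-3, and *USP53*, a ubiquitin-specific protease family member that localizes to tight junctions. They were picked by symbol out of the 63677 Ensembl genes with a read count, and all 9 were found. The choice was made with the comparison of the 2 cell lines already known, the high *USP53* values in FLO-1LM in particular. The differences between the lines are therefore given for these genes as a description, without a test.

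The study compared FLO-1, a human esophageal adenocarcinoma cell line, with FLO-1LM, a subline isolated from a liver metastasis that FLO-1 had formed after serial passage as xenografts in immunodeficient NSG mice. Total RNA was sequenced from 2 libraries of FLO-1LM cells and 2 libraries of FLO-1 parental cells, all grown in culture, with no treatment named, and harvested before they were confluent. FLO-1LM is a single subline, and separate cultures for the replicate libraries are not stated. The p-values below therefore measure only the spread between these libraries, which may be technical, and a difference between FLO-1LM and parental FLO-1 cannot be told apart from a difference of 1 isolate. In bulk RNA, fewer cells that express a gene and less RNA per cell cannot be told apart.

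The libraries held 19060310 to 25920336 counts. Levels are given as CPM, the counts scaled to a common library size, after TMM, a factor that aligns the bulk of the genes between libraries. Mitochondrial genes took 9.57% to 9.96% of the counts in FLO-1LM and 7.93% to 8.31% in parental cells. Markers of columnar epithelium, the tissue type of an adenocarcinoma, were present in part. Of 8 such markers, 6 had at least 10 counts in every library, while *EPCAM* had 3 to 12 counts and *ESRP1* 0 to 3. Their summed level was lower in FLO-1LM, at 495 to 505 CPM against 860 to 871 CPM in parental cells. Most of it was the keratins *KRT8*, at 283 and 263 CPM against 434 and 453 CPM, and *KRT18*, at 183 and 186 CPM against 295 and 288 CPM. The largest log2 falls among the tested markers were in *CDH1* and *KRT19*. *CDH1* was at 16.4 and 19.9 CPM against 85.9 and 82.6 CPM, and *KRT19* at 13.2 and 12.6 CPM against 30.2 and 33.9 CPM. *ESRP2* overlapped between the lines, at 5.79 and 10.1 CPM against 9.25 and 7.77 CPM. Squamous and leukocyte markers were at or near 0 (up to 2.09 and 0.224 CPM in sum), and *ALB*, *TTR* and *APOC3* of the hepatocyte had no count in any library. The other hepatocyte markers summed, almost wholly through *SERPINA1*, to 13.4 to 14.8 CPM in FLO-1LM and 16.4 to 18.1 CPM in parental cells. Fibroblast markers summed to 12.04 to 14.3 and 10.8 to 13.8 CPM, with 2 of 6 at 10 counts or more in every library. The endothelial sum of 24.7 to 30.03 and 26.5 to 33.7 CPM was nearly all *CLDN5*, a claudin also described below. It covers 3 of 4 listed markers, since *PECAM1* could not be matched to a counted gene.

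Claudins are the membrane proteins that form the strands of the tight junction and decide which ions pass between cells. Occludin belongs to the MARVEL family and joins the same strands, and JAM-A is an immunoglobulin-like protein that lies beside them. The ZO proteins tie the strands to the actin cytoskeleton, and USP53 is found with them at the junction. Columnar epithelia are rich in tight junctions, and in cells that lose epithelial character claudin and occludin genes are known targets of repressors such as SNAI1, ZEB1 and ZEB2, which bind the E-box letters CAGGTG.

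Sequence before annotated starts is shown for some of these genes so that the letters these repressors bind can be seen. RefSeq gave windows of 250 bases before an annotated start for 8 of the 9 genes, 14 windows in all. Each was found once in GRCh37, the build of the counts, by exact match, and positions are in that build. The windows of *CLDN3* and of the outermost *TJP1* start hold no annotated exon of their gene and are shown whole. Of the others, stretches of 30 bases are given: those next to the start for *CLDN4* and *CLDN7*, and those around the E-box for *USP53* and *OCLN*. Annotated exons of the gene fill all 250 bases of the windows of *CLDN4*, the inner *CLDN7* start and the outer *OCLN* start. They cover 137 bases of the inner *OCLN* window, 126 of the *USP53* window and at most 120 of any other. The *CLDN4* window, at chr7:73245076-73245325, lies inside the annotated gene, which starts at 73213872. The stretches printed for *CLDN7*, *USP53* and *OCLN* also lie inside their annotated genes. That of *USP53* begins at 120133754, after the annotated gene start at 120133742. Capitals mark the E-box, CAGGTG or, read on the other strand, CACCTG.
CLDN3 (chr7:73184601-73184850, minus strand): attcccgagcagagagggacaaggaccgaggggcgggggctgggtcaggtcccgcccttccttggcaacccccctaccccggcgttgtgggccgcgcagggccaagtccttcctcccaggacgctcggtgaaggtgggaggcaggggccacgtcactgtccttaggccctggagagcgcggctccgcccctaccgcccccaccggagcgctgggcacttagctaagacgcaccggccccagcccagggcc
TJP1 (chr15:30261253-30261502, minus strand): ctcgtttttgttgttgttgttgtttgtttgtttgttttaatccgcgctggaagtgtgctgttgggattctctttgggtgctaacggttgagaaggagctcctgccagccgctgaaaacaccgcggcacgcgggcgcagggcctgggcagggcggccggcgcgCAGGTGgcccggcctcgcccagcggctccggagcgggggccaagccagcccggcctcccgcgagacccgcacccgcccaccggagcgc
CLDN4 (chr7:73245296-73245325, plus strand): ccatataactgctcaacctgtccccgagag
CLDN7 (chr17:7165798-7165827, minus strand): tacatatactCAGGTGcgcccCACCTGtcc
USP53 (chr4:120133754-120133783, plus strand): acctgttgatcgCAGGTGtcactggcctga
OCLN, outer start (chr5:68788329-68788358, plus strand): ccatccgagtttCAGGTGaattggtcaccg
OCLN, inner start (chr5:68788472-68788501, plus strand): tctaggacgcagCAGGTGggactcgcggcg

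The E-box was present in 17.5% of 35116 RefSeq windows of this length, and none of the motifs searched contains another. *CLDN7* held 4 matches before its inner start and 0 before its outer start. *OCLN* held 1 match before each of 2 starts, *TJP1* 1 match before 1 of 4 starts, *TJP3* 1 match before 1 of 2 starts, and *USP53* 1 match before its single start. The windows of *CLDN1*, *CLDN3* and *CLDN4* held none. The GC box GGGCGG, the letters bound by SP-family factors, was found in 42.6% of all windows and 4 times in that of *CLDN3*, 3 times in that of *USP53* and once in that of *CLDN4*. It was also found 2 times in the *CLDN1* window, 2, 3, 1 and 0 times in the *TJP1* windows and once in each *TJP3* window. *CLDN7* held 1 before its inner start only, and *OCLN* 1 before its outer start only. The letters AACNNGTT, bound by grainyhead-like factors, were in 3% of all windows and in none of the 14. The *CLDN4* window was also the poorer in CpG pairs of the claudin neighbours, with 4 against 19 for *CLDN3*. It lies wholly within annotated exons of its gene, while the *CLDN3* window holds none. A match is a description of the letters in these windows and not of binding.

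The 4 claudins did not move as a group. *CLDN4* had a ratio of 0.477 between FLO-1LM and parental cells, *CLDN1* was the one of them above its parental values in both FLO-1LM libraries, and *CLDN3* and *CLDN7* overlapped between the lines.

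*CLDN4* encodes a claudin that tightens the barrier to sodium (chr7:73213872-73247020, plus strand, ENSG00000189143). Its counts were 202 and 189 in FLO-1LM and 403 and 307 in parental cells. This corresponded to 9.07 and 7.34 CPM in FLO-1LM and 18.3 and 16.0 CPM in parental cells, so that both FLO-1LM libraries lay below both parental libraries. The mean was 8.20 ± 1.22 (SD, n = 2) against 17.1 ± 1.61 CPM, a ratio of 0.477 with a 95% interval of 0.370 to 0.616, or −1.07 on the log2 scale (SE 0.18).

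*CLDN3*, a barrier-forming claudin whose single exon lies beside *CLDN4* (chr7:73183327-73184600, minus strand, ENSG00000165215), had 306 and 313 counts in FLO-1LM and 265 and 296 in parental cells. These were 13.7 and 12.2 CPM against 12.02 and 15.4 CPM, with the FLO-1LM values inside the parental range. The log2 fold change was −0.08 (SE 0.17, 95% interval −0.45 to 0.28).

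*CLDN1*, which is needed for the barrier of the skin and is present in many epithelia (chr3:190023496-190040235, minus strand, ENSG00000163347), had 117 and 103 counts in FLO-1LM and 76 and 47 in parental cells. At 5.25 and 4.001 CPM, both FLO-1LM libraries lay above the parental values of 3.45 and 2.45 CPM. The log2 fold change was 0.64 (SE 0.30, 95% interval 0.02 to 1.26), and the larger parental library exceeded the smaller by 1.41-fold.

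*CLDN7*, a claudin found along the lateral membrane as well (chr17:7163222-7167302, minus strand, ENSG00000181885), was barely measured. It had 32 and 21 counts in FLO-1LM and 16 and 17 in parental cells, or 1.44 and 0.816 CPM against 0.726 and 0.887 CPM. The FLO-1LM libraries differed from each other by 1.76-fold, more than the ratio of 1.39 between the lines, and the interval on the log2 scale ran from −0.76 to 1.71. Another protein-coding gene on the same strand shares 269 bases, or 10.8%, of the exon length of *CLDN7* and received 0 counts. How shared reads were assigned is not given in the sources used here. A further 38 bases of the *CLDN7* exons are shared with *ELP5* on the opposite strand, which had 4264 counts over the 4 libraries.

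**Figure D1:**
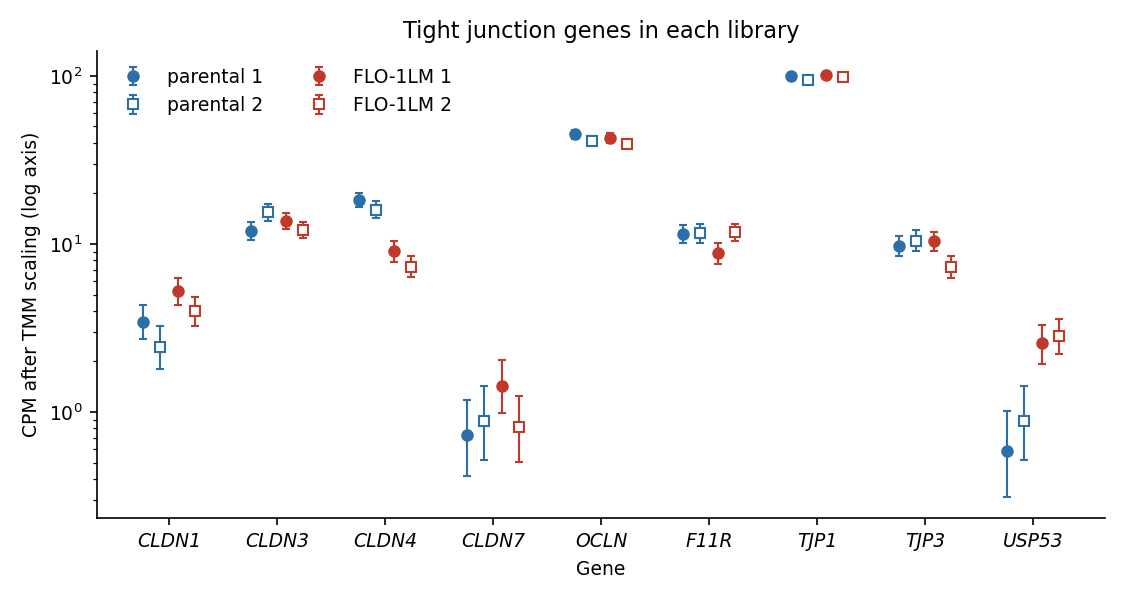
Level of each of the 9 tight junction genes in every library, in CPM after TMM scaling on a log axis. Circles are replicate 1 and squares replicate 2, blue is parental and red FLO-1LM, and bars are exact Poisson intervals at 95%, which cover counting error only. *CLDN4* is lower and *USP53* higher in both FLO-1LM libraries, while *TJP1* stays between 94.2 and 101 CPM.

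*OCLN*, the gene of occludin (chr5:68788119-68853931, plus strand, ENSG00000197822), was well measured, with 950 and 1014 counts in FLO-1LM and 990 and 790 in parental cells. Its levels were 42.6 and 39.4 CPM against 44.9 and 41.2 CPM, which overlap. The log2 fold change was −0.07 (SE 0.10, 95% interval −0.29 to 0.14). A near copy, *OCLNP1*, lies on the same chromosome, and how reads that match both were counted is not given in the sources used here, so the level of *OCLN* is uncertain.

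*F11R*, the gene of JAM-A, an adhesion protein that helps to set up the junction (chr1:160965001-160991133, minus strand, ENSG00000158769), had 196 and 302 counts in FLO-1LM and 253 and 222 in parental cells. FLO-1LM replicate 1 was the low library, at 8.80 CPM, while the other FLO-1LM library had 11.7 CPM and the parental libraries 11.5 and 11.6 CPM. The log2 fold change was −0.16 (SE 0.19, 95% interval −0.56 to 0.23). A readthrough gene shares 36.6% of the exon length of *F11R* on the same strand and received 5 counts in all, and how shared reads were assigned is not given in the sources used here.

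Among the scaffolds, *TJP1*, the gene of ZO-1 (chr15:29991571-30261118, minus strand, ENSG00000104067), was the best measured of the 9. Its counts were 2255 and 2518 in FLO-1LM and 2211 and 1807 in parental cells, or 101 and 97.8 CPM against 100.3 and 94.2 CPM. The lines overlapped, the log2 fold change was 0.03 (SE 0.08), and its 95% interval of −0.14 to 0.20 was the narrowest of the group. *TJP3*, the gene of ZO-3, an epithelial scaffold (chr19:3708360-3750811, plus strand, ENSG00000105289), had 232 and 188 counts in FLO-1LM and 214 and 201 in parental cells. Its levels were 10.4 and 7.30 CPM against 9.71 and 10.5 CPM, with 1 FLO-1LM library low and 1 within the parental range. The log2 fold change was −0.19 (SE 0.20, 95% interval −0.62 to 0.23).

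*USP53* (chr4:120133742-120216673, plus strand, ENSG00000145390) was low in both lines and higher in FLO-1LM. It had 57 and 73 counts in FLO-1LM and 13 and 17 in parental cells. The levels were 2.56 and 2.84 CPM in FLO-1LM against 0.590 and 0.887 CPM in parental cells. The counting intervals of single libraries were 1.94 to 3.31 and 2.22 to 3.57 CPM against 0.314 to 1.01 and 0.516 to 1.42 CPM. They cover counting error only and not the spread between libraries. *USP53* was chosen with its high FLO-1LM values known, so these intervals are no test of the difference. The mean ratio was 3.66 (95% interval 1.89 to 7.10), or 1.87 on the log2 scale (SE 0.45). The parental libraries differed from each other by 1.503-fold and the FLO-1LM libraries by 1.11-fold. This gene rests on 160 counts in all, so that its interval is wider than that of *CLDN4*, which has 1101.

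**Figure D2:**
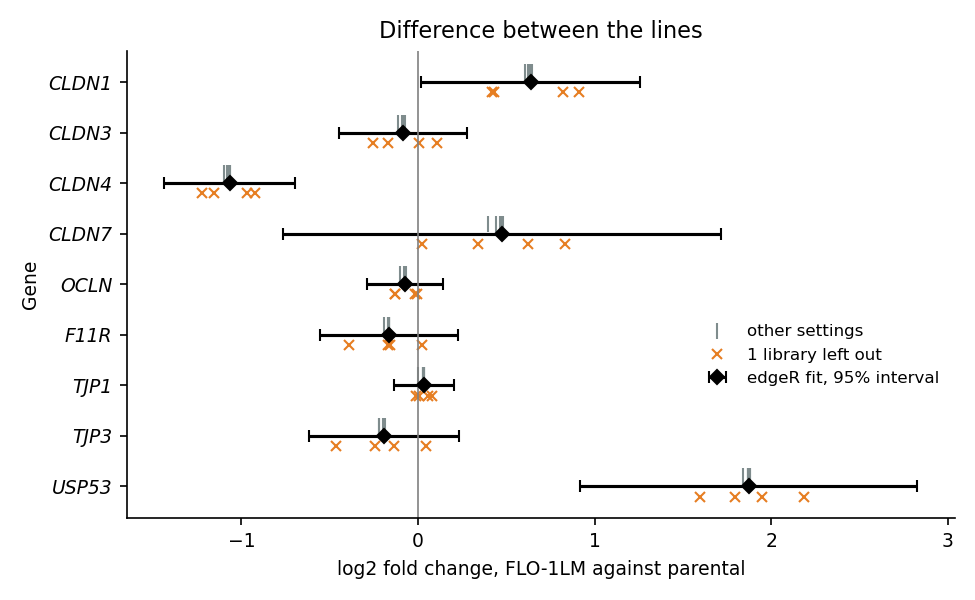
Log2 fold change of FLO-1LM against parental cells for the 9 genes. Diamonds with bars are the edgeR estimate and its 95% interval, grey ticks are 7 other ways to process the counts, and orange crosses are fits that leave out 1 library. The estimates for *CLDN4* stay between −1.23 and −0.92 and those for *USP53* between 1.60 and 2.18, and those of *CLDN3*, *F11R*, *TJP1* and *TJP3* change sign when some single library is left out.

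Across all 17143 genes tested by edgeR's quasi-likelihood test, 2.23% passed an adjusted p of 0.05, 0.402% higher and 1.83% lower in FLO-1LM. Among the 12536 protein-coding genes the share was 1.65%, with 0.463% higher and 1.19% lower. Of the 9 tight junction genes 2 passed, *USP53* higher and *CLDN4* lower, a count that the choice of the genes on this comparison leaves without weight. Both FLO-1LM libraries lay outside the parental range in 3 of the 9 (*CLDN1* and *USP53* above, *CLDN4* below), against 42.6% of all genes tested (20.9% above and 21.7% below) and 43.1% of protein-coding genes. The median log2 fold change was −0.07, with 4 positive and 5 negative values, against 0.0016 for all genes and 0.0071 for protein-coding genes. Without parental replicate 1 the log2 fold change was −0.97 for *CLDN4* and 1.60 for *USP53*. Without parental replicate 2 it was −1.16 and 2.18. Leaving out 1 library changed the calls among these 9 and over all genes, as given at the end. With all libraries, *USP53* fell short with DESeq2 and limma voom. The sum of the epithelial markers, mostly *KRT8* and *KRT18*, was also lower in FLO-1LM, and its part in the values above was not tested.

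To compare genes with each other, counts were divided by the merged exon length and scaled to the same total in each library (TPM). In parental cells *CLDN3* was highest at 33.6 ± 5.04 TPM (SD, n = 2), followed by *TJP1* at 26.8 ± 1.88, *OCLN* at 11.9 ± 1.04, *CLDN4* at 11.4 ± 1.36, *TJP3* at 7.94 ± 0.225, *F11R* at 7.11 ± 0.141, *CLDN1* at 2.54 ± 0.672, *CLDN7* at 1.01 ± 0.116 and *USP53* at 0.192 ± 0.0498 TPM. The only neighbours in that order whose ranges over the libraries overlapped were *OCLN* and *CLDN4*. In FLO-1LM *CLDN4* stood at 5.16 ± 0.740 TPM, behind *TJP3* at 6.61 ± 1.61 and *F11R* at 6.01 ± 1.25 TPM, although its range overlapped that of *F11R*, whose range overlapped that of *TJP3*. *USP53* was the lowest in both lines, at 0.668 ± 0.0522 TPM in FLO-1LM. On the length of the canonical transcript in place of the merged exons, a choice made with the values in view, *TJP1* stood above *CLDN3* in both lines and *CLDN4* ranked 3 in parental cells and 4 in FLO-1LM.

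The claudin repertoire of both lines was made up mostly of claudins outside the 9 genes. *CLDN12*, an unusual claudin linked to calcium passage, reached 32.5 ± 3.63 TPM in FLO-1LM and 33.0 ± 3.21 TPM in parental cells (SD, n = 2). *CLDN5*, best known from endothelial barriers, reached 23.6 ± 3.04 and 27.2 ± 3.76 TPM, and *CLDN15*, a cation channel of the intestine, 17.3 ± 0.860 and 18.6 ± 1.06 TPM. None of these passed the edgeR test (log2 fold change 0.05, −0.13 and −0.03, adjusted p 0.89, 0.78 and 0.97). As a share of the summed claudin level, *CLDN3* held 25.7% in FLO-1LM and 25.5% in parental cells. *CLDN4* held 4.55% and 4.25% in the FLO-1LM libraries and 9.59% and 7.78% in the parental libraries. *CLDN1* held 3.21% and 1.94%, and *CLDN7* 1.12% and 0.765%, as means of the lines. On the canonical length *CLDN3* held 14.0% and 13.5% and *CLDN4* 6.64% and 12.8%.

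**Figure D3:**
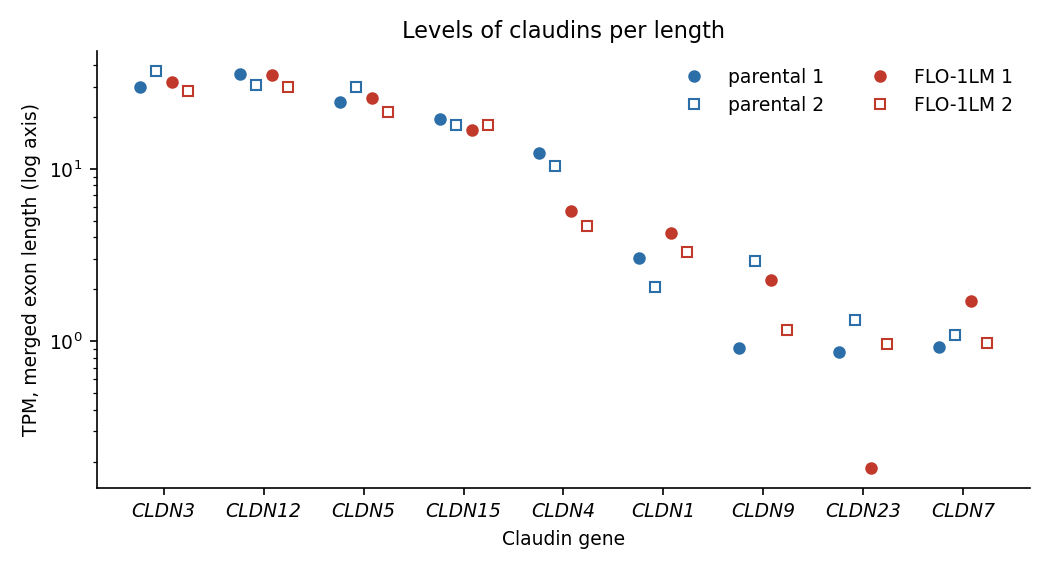
Level per exon length, in TPM on a log axis, of the claudins that passed the low-count filter, in each library (blue parental, red FLO-1LM). *CLDN3*, *CLDN12*, *CLDN5* and *CLDN15* lead in all 4 libraries, and among the claudins with more than 5 TPM in parental cells only *CLDN4* has its FLO-1LM libraries apart from the parental ones.

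Of 94 other tight junction genes, listed by role from textbook membership, 61 had enough counts to be tested, 14 had no count in any library and 19 had up to 41 counts in all. The list was written with earlier results of these data known, so the tests below may not be independent of that knowledge. Whether reads of a gene listed at 0 were assigned to another row of the counts was not tested. Of the 61, 1 passed the edgeR test higher and 2 lower in FLO-1LM, and 10 had an unadjusted p below 0.05. Over all genes tested 2.23% passed and 12.4% had an unadjusted p below 0.05. The median log2 fold change was 0.0092, with 31 positive and 30 negative values. The 3 that passed were *ZEB2*, *KLF4* and *PARD6B*, and none of them encodes a strand protein or a ZO scaffold.

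*KLF4*, a transcription factor of differentiating epithelium (chr9:110247133-110252763, minus strand), had 830 counts in each FLO-1LM library and 1133 and 943 in parental cells, or 37.3 and 32.2 CPM against 51.4 and 49.2 CPM. It fell by 0.54 on the log2 scale (SE 0.10, edgeR adjusted p = 0.0085). *ZEB2*, the repressor named above (chr2:145121931-145278624, minus strand), had 689 and 781 counts in FLO-1LM and 505 and 408 in parental cells. It rose from 22.9 and 21.3 to 30.9 and 30.3 CPM, by 0.47 on the log2 scale (SE 0.12, edgeR adjusted p = 0.046). *PARD6B*, a subunit of the PAR polarity complex that positions the junction (chr20:49348117-49373332, plus strand), had 979 and 955 counts in FLO-1LM and 1275 and 999 in parental cells. Its levels of 43.9 and 37.1 CPM lay below the parental 57.8 and 52.1 CPM, a fall of 0.44 on the log2 scale (SE 0.11, edgeR adjusted p = 0.033). With 1 library left out the log2 fold change ran from −0.64 to −0.43 for *KLF4* and from 0.42 to 0.53 for *ZEB2*. For *PARD6B* it ran from −0.57 to −0.32. How the calls shifted in these fits, here and over all genes, is given at the end. With all libraries, *PARD6B* lost the call with DESeq2. *ZEB2* lost it with library totals only, a count of 10 in every library, DESeq2 and limma voom.

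Among the regulators of junction genes, 16 were listed, and 9 were tested. The other tested members did not pass. *ELF3*, an epithelial ETS factor that is also one of the epithelial markers above, had 80 and 74 counts in FLO-1LM and 134 and 103 in parental cells (log2 fold change −0.83, SE 0.26, edgeR adjusted p = 0.14). *ZEB1*, the paralog of *ZEB2*, was at 68.2 and 76.5 CPM against 66.6 and 64.9 CPM (0.14, SE 0.09, edgeR adjusted p = 0.60). *SNAI1* was at 2.78 and 3.07 CPM against 2.99 and 2.61 CPM (0.06, SE 0.32, edgeR adjusted p = 0.97). Of the grainyhead-like factors, activators of claudin genes, *GRHL1* was at 9.05 to 11.6 CPM and *GRHL3* had 6 to 16 counts a library. *GRHL2* was listed at 0 in all 4 libraries, with the same limit on what a 0 means. The log2 fold changes were −0.02 (SE 0.19) for *GRHL1* and 0.66 (SE 0.73) for *GRHL3*. *KLF5* and the intestinal factor *CDX2* had 0.25 (SE 0.17) and −0.29 (SE 0.22), with edgeR adjusted p of 0.63 and 0.67. *OVOL2* and *TWIST1* also had no counts, and *SNAI2*, *HNF4A* and *OVOL1* had 9, 2 and 2 counts in all.

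In the other groups of the list, no gene besides *PARD6B* passed. At tricellular contacts, *LSR* was abundant, at 95.7 ± 1.05 TPM in FLO-1LM and 102 ± 0.160 TPM in parental cells (SD, n = 2), with a log2 fold change of −0.01 (SE 0.08). *MARVELD2*, the gene of tricellulin, had −0.12 (SE 0.19). Of the immunoglobulin-like proteins 3 of 7 were tested, with log2 fold changes of −0.15 (SE 0.10) for *CXADR*, −0.12 (SE 0.08) for *JAM3* and 0.17 (SE 0.39) for *ESAM*. *NCAPD3* on the opposite strand shares 35.6% of the exon length of *JAM3*. It had 12028 counts over the libraries against 9202 for *JAM3*, and how shared reads were assigned is not given in the sources used here.

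All but 1 of 14 scaffolds were tested, and *MPDZ* was listed at 0 in every library, with that limit too. The highest in level were *AMOTL2*, *AFDN* and *TJAP1*, with log2 fold changes of −0.13 (SE 0.08), −0.24 (SE 0.08) and −0.11 (SE 0.09) and edgeR adjusted p of 0.52, 0.15 and 0.73. The 13 polarity genes were all tested, and 11 had a positive log2 fold change, with *SCRIB* at 0.14 (SE 0.08), *PRKCI* at 0.11 (SE 0.08) and *LLGL1* at 0.05 (SE 0.09). Their median was 0.11, against 0.0016 for all genes tested. Several of the positive values were smaller than their SE, and *PARD6B*, the only one that passed, was negative. The value of *CRB3*, 1.64, rests on 3 to 23 counts a library (SE 0.82, edgeR adjusted p = 0.44), and it was singled out after its value was seen.

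The 14 regulators of junction assembly ranged from −0.09 to 0.11 on the log2 scale, the narrowest range among the groups of more than 3 tested genes. The small GTPase *RHOA* had −0.08 (SE 0.07), *RAB13*, which brings membrane proteins to the junction, −0.06 (SE 0.08), and *YBX3*, the ZO-1 partner ZONAB, −0.09 (SE 0.07). The protease inhibitor *SPINT2* was at 714 and 786 CPM in FLO-1LM and 748 and 795 CPM in parental cells (−0.04, SE 0.07). Its relative *SPINT1* had 12 to 46 counts a library (0.21, SE 0.57).

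**Figure D4:**
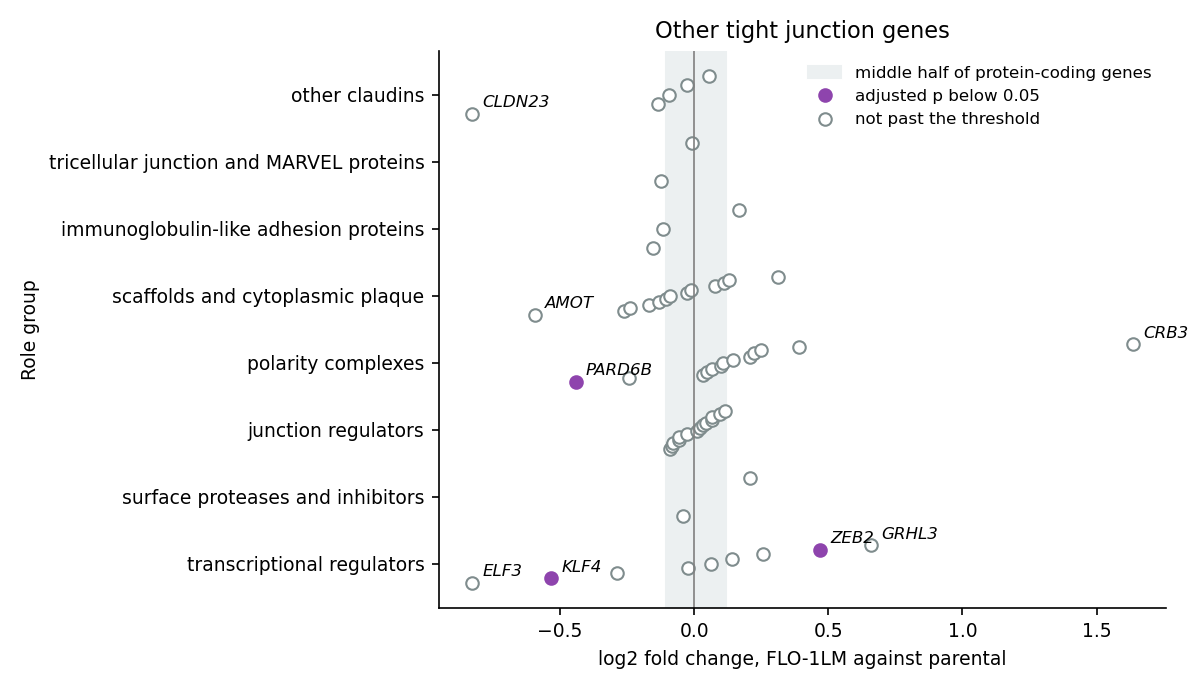
Log2 fold change of FLO-1LM against parental cells for the 61 tested genes of the list, by role. Filled points passed an adjusted p of 0.05 by edgeR, open points did not, and the shaded band holds the middle 50% of protein-coding genes. *PARD6B*, *KLF4* and *ZEB2* are the filled points, and the junction regulators lie close to 0.

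The genes around *CLDN4* and *USP53* on the chromosome were looked at after the values of both were seen. Within 250 kb of *CLDN4*, 12 other genes were tested, *CLDN3* among them, and none passed the edgeR test. Their log2 fold changes ran from −0.21 for *METTL27* (SE 0.11, edgeR adjusted p = 0.45) to 0.43 for *TMEM270* (SE 0.70), which had 9 to 35 counts a library. Around *USP53*, 3 other genes were tested. *C4orf3*, its nearest neighbour, had 0.05 (SE 0.09), the pseudogene *SEPTIN7P14* −0.54 (SE 0.38), and *PDE5A*, which encodes a cyclic GMP phosphodiesterase, 0.82 (SE 0.31, edgeR adjusted p = 0.24). *PDE5A* was at 4.80 and 3.69 CPM in FLO-1LM and 2.31 and 2.50 CPM in parental cells, so that both FLO-1LM libraries lay above the parental range. *C4orf3* did so too, by a small margin, and *SEPTIN7P14* lay below. Around *CLDN4*, *DNAJC30* lay above and *STX1A* and *METTL27* below the parental range, and the other neighbours overlapped. Of all genes tested, 20.9% lay above and 21.7% below.

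**Figure D5:**
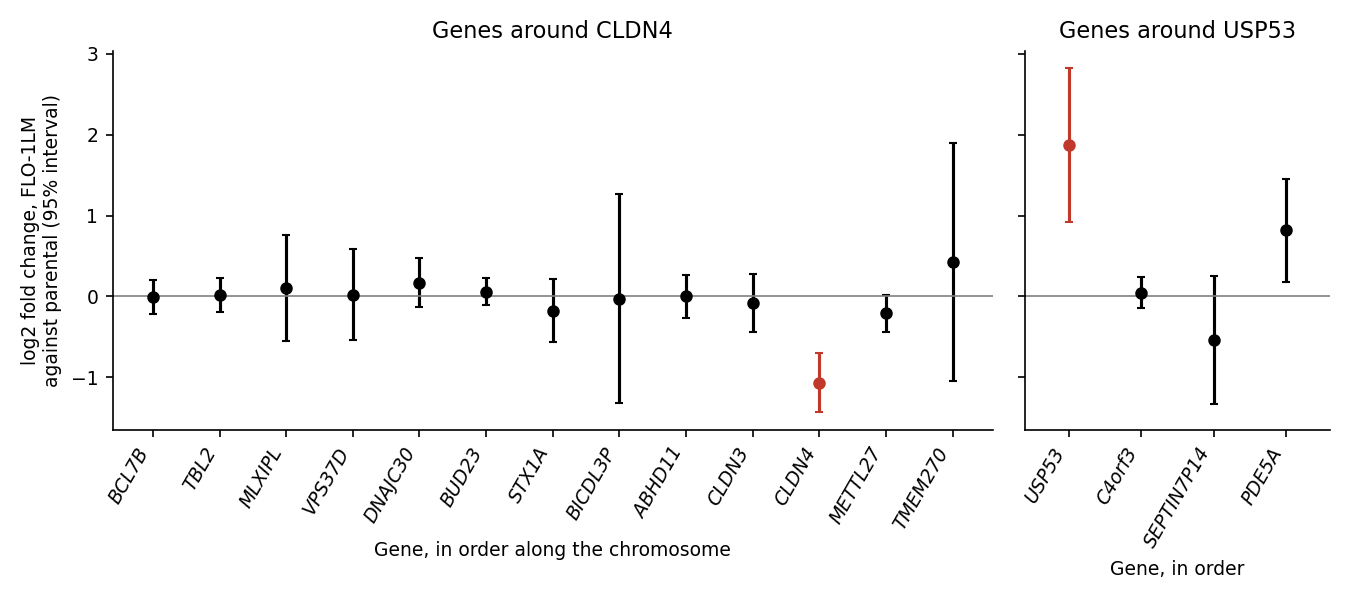
Log2 fold change with its 95% interval for tested genes within 250 kb of *CLDN4* (left) and *USP53* (right), in order along the chromosome. Red marks the named gene and black its neighbours. None of the 12 neighbours of *CLDN4* or the 3 of *USP53* passed the edgeR test.

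The genes whose profile over the 4 libraries was most like that of *USP53* were *ZNF711*, *NAV3* and *KCNG2*. Likeness was measured as the root mean square difference of log2 CPM after centring, which was 0.13, 0.15 and 0.15. All 3 are low in count, with 58, 99 and 34 counts in all, and had log2 fold changes of 1.99 (SE 0.74), 2.01 (SE 0.61) and 2.26 (SE 0.91). None of the 3 passed the edgeR test (adjusted p 0.24, 0.11 and 0.29). For *CLDN4* the nearest were *APOM*, *CA2* and *APOBEC3C*, at 0.04, 0.08 and 0.08. *APOM* and *CA2* had 155 and 81 counts in all, with log2 fold changes of −1.19 (SE 0.43) and −1.04 (SE 0.59). Neither passed the edgeR test (adjusted p 0.22 and 0.52). *APOBEC3C* had 152 and 165 counts in FLO-1LM and 311 and 248 in parental cells and passed the edgeR test (log2 fold change −1.03, SE 0.18, adjusted p = 0.0036). With 4 libraries such likeness follows mostly from the difference between the lines.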

How the data were processed

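Total RNA of 2 FLO-1LM and 2 FLO-1 parental libraries was made into directional libraries and sequenced by the authors, who deposited raw read counts per Ensembl gene. The submitters' processing notes name bcl2fastq 2.17, Trimmomatic 0.30 and GRCh37. The aligner, counting program and strand setting are not given in the sources used here. Libraries were assigned to lines by their labels.

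Counts were tested in R 4.3.3 with edgeR 4.0.16 (TMM, filterByExpr at a minimum count of 10 and a minimum total of 15, estimateDisp, glmQLFit, glmQLFTest, Benjamini-Hochberg over 17143 genes, threshold 0.05). The SE is the log2 fold change divided by the root of F. Positions, exon lengths and symbols are from GENCODE 44 lifted to GRCh37, which matched 55665 of 63677 genes, and promoter windows are from RefSeq (GRCh38.p14). The common biological coefficient of variation was 0.0899. Libraries of a line differed beyond sampling noise, with chi-square per degree of freedom of 7.85 (FLO-1LM) and 3.70 (parental). A permutation test of 1 gene cannot go below 0.333 with these libraries. Scripts were tested on simulated data.

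The members and lists were chosen with earlier results of these data known. Named were the 9 members, every listed gene past the threshold, up to 3 tested genes of each role group with the highest level per length, all tested transcriptional regulators, and the 3 nearest protein-coding profiles of *USP53* and *CLDN4*, beside genes said to be chosen afterwards. Alternatives were RLE factors, library totals only, DESeq2 1.42.0, limma 3.58.1 voom, 2 other count filters, no mitochondrial genes, and each library left out. Counting intervals are exact Poisson and cover counting error only.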

Additional observations from a re-analysis of the deposited data

How the results depend on the processing

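No paired analysis was possible because GEO's labels carry no replicate numbers, and the numbers 1 and 2 used here only name the libraries of a line in accession order. Over all genes, 382 passed by edgeR, 577 without a low-count filter, and 116 to 1052 with 1 library left out, the lowest without parental replicate 1 and the highest without FLO-1LM replicate 1. Of the 9 tight junction genes 2 passed, 1 (*CLDN4*) with DESeq2 and 1 (*CLDN4*) with limma voom, and 0 to 2 with 1 library left out. Of the other listed genes 3 passed, 1 (*KLF4*) with DESeq2 and 0 to 7 with 1 library left out, 0 without either parental library and 7 without FLO-1LM replicate 1. The cause of these shifts was not tested. *CLDN4* passed in 10 of 11 alternatives and *USP53* in 7, which lends them no support, since they were chosen on this comparison. *KLF4* passed in 9 (adjusted p 2.6e-06 to 0.19), *PARD6B* in 7 (2.8e-05 to 0.64) and *ZEB2* in 5 (0.012 to 0.57). The list that holds *KLF4*, *PARD6B* and *ZEB2* was also written with earlier results of these data known. None of these 5 genes changed sign in any of the 11. Library totals alone moved the median of all genes to −0.03. Depth limits *CLDN7*, *USP53*, *GRHL3* and *CRB3*, and a fit that leaves 1 library in a line takes its spread from the other line.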
